A study of Rattus norvegicus with 10 samples.

Results

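The insulin-like growth factor (IGF) family was described here through 9 genes, the ligands Igf1 and Igf2, the receptors Igf1r and Igf2r and the binding proteins Igfbp2 to Igfbp6. Its members were all probe sets annotated with exactly 1 of these symbols, which gave 22 of the 31042 probe sets and 9 of the 14217 genes of the arrays. The arrays (Affymetrix Rat Genome 230 2.0) measured mRNA of the hippocampus in 5 male Wistar rats on solid chow (C-group, C1 to C5) and 5 on powdered chow (P-group, P1 to P5). All rats entered at 3 weeks of age, were acclimatized on powdered feed, took their group's feed freely for 8 days and are labeled as 4 weeks old. The hippocampi were dissected by hand, so a sample could also hold choroid plexus and meninges, which lie against the hippocampus.

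IGF1 and IGF2 are secreted growth factors that promote the growth and survival of cells through the IGF1 receptor, a tyrosine kinase. The IGF2 receptor binds IGF2, takes it up and delivers it to lysosomes, and it also carries enzymes tagged with mannose 6-phosphate. The binding proteins hold the ligands in extracellular fluid and either restrain or prolong their action. In the brain after birth, Igf2 mRNA is known mainly from the choroid plexus, which makes cerebrospinal fluid, and from the meninges, and Igfbp2 is known from the same sites and from astrocytes. The relation of the members to Ttr, the transthyretin gene that marks the choroid plexus, and to Col1a2, a collagen gene of meningeal fibroblasts, was therefore part of the question beside the diet.

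The deposited values come from a factor model that flattens probe sets without a shared signal among their probes. A probe set was taken as variable when its SD over the 10 rats was above 0.01 log2 units. Variable probe sets made up 5 of the 22 of the family (22.7%) and 2904 of all 31042 (9.36%). They were 1 of 4 for Igf2, 1 of 2 for Igf1r, the only probe set of Igfbp2 and 2 of 5 for Igfbp5. Igf1, Igf2r, Igfbp3, Igfbp4 and Igfbp6 had none. The other 17 probe sets of the family had SDs from 0.000101 to 0.000535 and differed between the groups by at most 0.000338 log2 units in either direction. A difference between the groups in Igf1, Igf2r, Igfbp3, Igfbp4 or Igfbp6 was not detectable in such values.

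**Figure D1:**
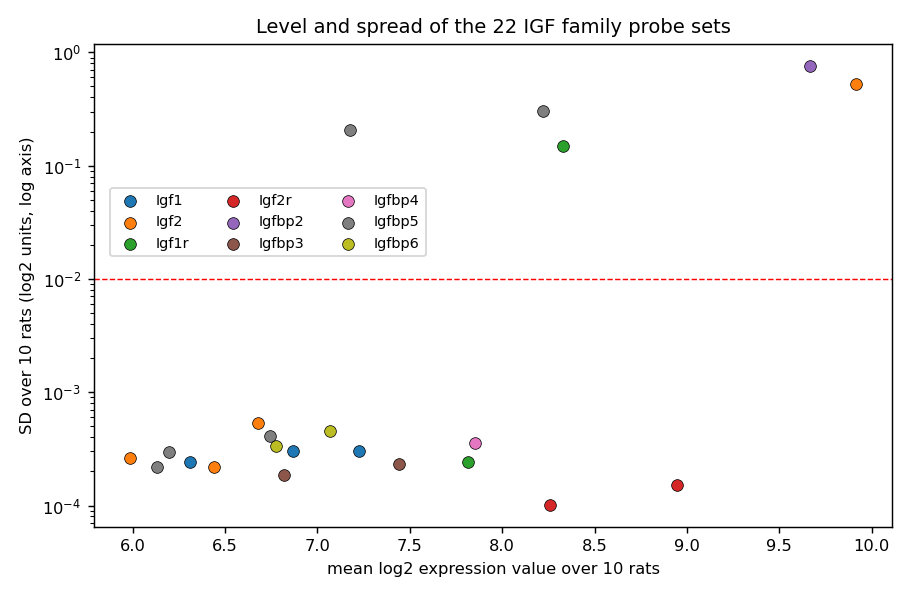
Mean log2 expression value (horizontal axis) and SD over the 10 rats (vertical log axis, in log2 units) of the 22 probe sets of the IGF family, with a color for each gene. The 5 probe sets above the dashed red line (SD 0.01) belong to Igf2, Igf1r, Igfbp2 and Igfbp5.

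Igf2 and Igfbp2 had the widest spread of the family and high values in the same 4 rats, whereas Igfbp5 did not have that order although it is the next protein-coding gene after Igfbp2 on chromosome 9 in the RefSeq annotation. The stretches around the annotated starts of these 3 genes are shown for that contrast. RefSeq (assembly GRCr8) held such a stretch for all 9 genes, from 250 bases before to 50 bases after the start and read along the gene, with 2 starts for Igf2. The arrays do not tell which start was used. Capitals mark the GC box GGGCGG, read on both strands and known as a binding site of SP1, and the E-box CACGTG, and the 2 motifs do not overlap here.
Igf2, start 1, chr1:207253931-207254230, minus strand: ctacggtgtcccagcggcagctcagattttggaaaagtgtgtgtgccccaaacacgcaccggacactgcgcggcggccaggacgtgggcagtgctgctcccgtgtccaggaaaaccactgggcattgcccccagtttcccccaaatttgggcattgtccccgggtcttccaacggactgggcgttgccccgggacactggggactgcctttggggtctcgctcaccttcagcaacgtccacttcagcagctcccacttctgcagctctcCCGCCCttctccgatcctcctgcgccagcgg
Igf2, start 2, chr1:207250426-207250725, minus strand: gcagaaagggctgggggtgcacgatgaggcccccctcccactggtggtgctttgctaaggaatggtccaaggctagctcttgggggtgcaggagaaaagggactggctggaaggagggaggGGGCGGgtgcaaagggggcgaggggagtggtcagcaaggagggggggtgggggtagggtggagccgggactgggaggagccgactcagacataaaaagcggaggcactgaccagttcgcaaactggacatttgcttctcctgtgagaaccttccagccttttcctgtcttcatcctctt
Igfbp2, chr9:81864561-81864860, plus strand: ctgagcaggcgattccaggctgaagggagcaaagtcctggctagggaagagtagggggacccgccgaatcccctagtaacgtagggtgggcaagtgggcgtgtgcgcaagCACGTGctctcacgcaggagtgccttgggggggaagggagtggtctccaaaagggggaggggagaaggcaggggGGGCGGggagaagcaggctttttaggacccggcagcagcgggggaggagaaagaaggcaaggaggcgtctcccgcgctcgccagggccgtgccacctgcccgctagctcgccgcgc
Igfbp5, chr9:81914138-81914437, minus strand: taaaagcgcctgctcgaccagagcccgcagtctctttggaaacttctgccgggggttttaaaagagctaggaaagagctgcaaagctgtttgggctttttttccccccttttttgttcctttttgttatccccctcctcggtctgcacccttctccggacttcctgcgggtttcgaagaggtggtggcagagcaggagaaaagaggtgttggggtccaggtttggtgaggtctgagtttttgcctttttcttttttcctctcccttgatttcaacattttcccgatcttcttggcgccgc

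Each stretch of Igf2 and that of Igfbp2 held 1 GC box, a motif found in 33.1% of the 33469 stretches in the table. The stretch of Igfbp2 also held 1 E-box, found in 6.42% of them. Neither motif was in the stretch of Igfbp5, and TATAAA and TAATCC, a core bound by OTX proteins, were in none of the 4 on either strand (14.2% and 7.17% of all stretches). The stretches of Igf2 held 19 (start 1) and 7 (start 2) CpG dinucleotides. Those of Igfbp2 and Igfbp5 held 20 and 11, and the median of all stretches was 7. The stretches of Igf1r and Igf2r, not shown, also held both the GC box and the E-box (1 of each and 2 of each). Igf1r had another order of rats. The probe sets of Igf2r were flat, so no order of rats can be read from them. Whether a motif bears on the order of rats was not tested. A match of letters is not a binding site.

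Of the ligands, Igf2 was 10.64, 10.26, 9.46, 9.52 and 10.53 log2 units in C1 to C5 and 9.57, 9.79, 10.57, 9.32 and 9.49 in P1 to P5 at its variable probe set. C1, C2, C5 and P3 were high and the other 6 rats low, with a gap of 0.48 between them, and the groups overlapped. The C-group averaged 10.08 ± 0.56 and the P-group 9.75 ± 0.49 (SD, n = 5 rats each). The difference of 0.33 log2 units was smaller than these SDs and had a standard error of 0.32 (limma unadjusted p = 0.329, adjusted p = 0.927 over all probe sets). No probe set of the arrays had a lower adjusted p in limma. Rank products, the method named by the study, called Igf2 higher in the C-group at a false discovery rate (FDR) of 0.0187, against a threshold of 0.05. This method subtracts each P-group rat from each C-group rat, ranks the probe sets in all 25 pairs and combines the ranks. The differences are not divided by the spread of a probe set, so a probe set with a wide spread can reach the extreme ranks and a flat one cannot. All 620 probe sets called higher were among the 2904 variable ones. Igf2 lost this call without C1, C2, C5 or P4 (FDR 0.115, 0.079, 0.0824 and 0.0642) and when the method was run on the variable probe sets alone (FDR 0.784), and the difference was 0.19 without C1 and 0.54 without P3. The other 3 probe sets of Igf2 were at means of 5.99, 6.44 and 6.68 and did not vary. Igf1 was at 6.31, 6.87 and 7.23 at its 3 probe sets, none of which varied.

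Igfbp2 exhibited the largest difference of the family. Its values were 10.84, 10.05, 9.02, 9.22 and 10.58 in C1 to C5 and 9.10, 9.27, 10.52, 8.75 and 9.30 in P1 to P5. C1, C5, P3 and C2 were again the high rats, and the highest and lowest rats were 4.27-fold apart on the linear scale. The C-group averaged 9.94 ± 0.81 and the P-group 9.39 ± 0.67 (SD, n = 5 rats each), and the groups overlapped. The difference of 0.56 had a standard error of 0.46 (limma adjusted p = 0.927), within the spread between rats. Rank products called Igfbp2 higher in the C-group (FDR 0.00407). The difference was 0.33 without C1, where the call was lost (FDR 0.0538), and 0.84 without P3. The call was also lost among the variable probe sets alone (FDR 0.258).

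Igf1r, which encodes the signaling receptor, was 8.69, 8.42, 8.15, 8.30 and 8.32 in C1 to C5 and 8.34, 8.29, 8.33, 8.23 and 8.20 in P1 to P5 at its variable probe set. C1 was the highest rat, 0.26 above the next, and C3 the lowest, and the groups overlapped. The difference was 0.10 (standard error 0.09, limma adjusted p = 0.927), and rank products did not call it (FDR 0.277). It was 0.02 without C1 and 0.15 without C3. The other probe set of Igf1r, at 7.82, and those of Igf2r, at 8.26 and 8.95, did not vary.

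Igfbp5 had 2 variable probe sets, with means of 8.22 (the first) and 7.18 (the second), and C1, C2 and P4 were the highest rats in that order at both. The first was 8.81, 8.65, 7.92, 7.97 and 7.96 in C1 to C5 and 8.22, 8.02, 8.12, 8.40 and 8.17 in P1 to P5. C1 and C2 were high, as for Igf2 and Igfbp2, but C5 was among the lowest rats and P4 was the third highest. The difference was 0.08 (standard error 0.20) at the first and 0.06 (standard error 0.13) at the second, with limma adjusted p-values of 0.957 and 0.950, and neither was called in either direction in the unpaired test of all 10 rats. Without C1 the differences were -0.063 and -0.026, and without C2 they were -0.02 and -0.0033, and in both settings the first was called lower (FDR 0.0318 and 0.0436). They were also 0.15 and 0.13 without C5, 0.16 and 0.11 without C3, 0.15 and 0.09 without C4, 0.13 and 0.10 without P4, and 0.03 and 0.02 without P2. The remaining 3 probe sets of Igfbp5 and those of Igfbp3, Igfbp4 and Igfbp6 had means from 6.13 to 7.85 and did not vary.

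**Figure D2:**
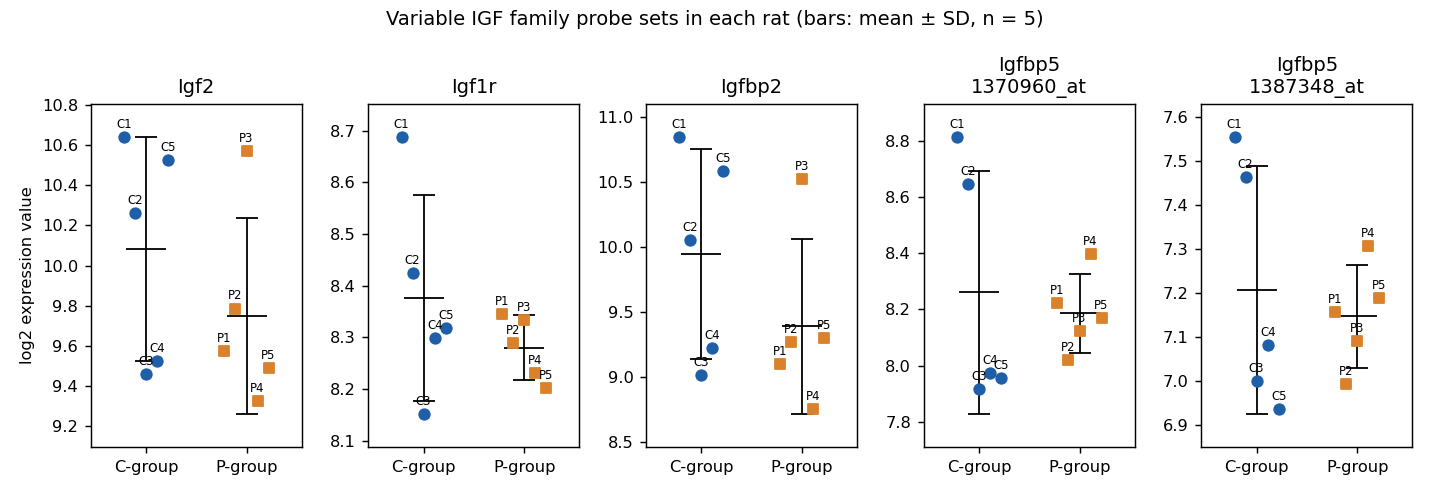
Log2 expression values of the 5 variable probe sets of the IGF family in each rat of the C-group (blue circles) and the P-group (orange squares), with bars for the mean and SD of 5 rats. The groups overlap in each panel, C1 is the highest rat in all 5, and P3 lies with C1, C2 and C5 for Igf2 and Igfbp2. The vertical axes differ between panels.

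In total, rank products called 2 of the 22 probe sets of the family higher and none lower in the C-group, against 2.0% of all probe sets higher and 0.416% lower. In terms of genes, 2 of 9 were called higher, against 2.53% of all genes higher and 0.626% lower. All probe sets called higher are variable. Of the 5 variable probe sets of the family 2 were called higher, against 21.3% of all variable ones, and of the 4 genes with a variable probe set 2, against 20.1%. The median difference of the 5 was 0.10 log2 units, and that of all variable probe sets was 0.07. In limma, 0 of 22 passed at an adjusted p under 0.05 (0% of all probe sets did), and 0 of 22 had an unadjusted p under 0.05, against 2.95% of all. C1 had the highest value in all 5 variable probe sets of the family, in 53.5% of all variable probe sets and in 74.4% of those called higher.

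The 4 highest rats of Igf2 and Igfbp2 were also the highest in many markers of choroid plexus and meninges, although the full order of rats differed. Ttr was 13.59, 13.49, 10.35, 9.09 and 13.60 in C1 to C5 and 7.40, 9.29, 13.58, 10.18 and 12.99 in P1 to P5. It thus parted the rats into 5 high and 5 low ones with a gap of 2.64, and no correlation over the 10 rats is given with it. The 4 high rats of Igf2 and Igfbp2 were the 4 highest of Ttr. P5 differed, since its Ttr was high, the fifth of 10 rats, whereas Igf2 was 9.49, the eighth. Igfbp2 was 9.30 in P5, the fifth as for Ttr, but below the gap of Igfbp2, among its 6 low rats. Col1a2 was 8.99, 9.08, 8.67, 8.87 and 9.11 in C1 to C5 and 8.72, 8.86, 9.13, 8.46 and 8.14 in P1 to P5 at the probe set with the higher mean, which is the one used below. The 4 highest rats were again C1, C2, C5 and P3, and P5 was the lowest. The other probe set of Col1a2 did not have these 4 on top. It was 8.21, 8.28, 7.91, 8.02 and 8.32 in C1 to C5 and 7.92, 8.28, 8.26, 7.76 and 7.55 in P1 to P5, with P2 the second and C1 the fifth of the rats, and P5 again the lowest.

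**Figure D3:**
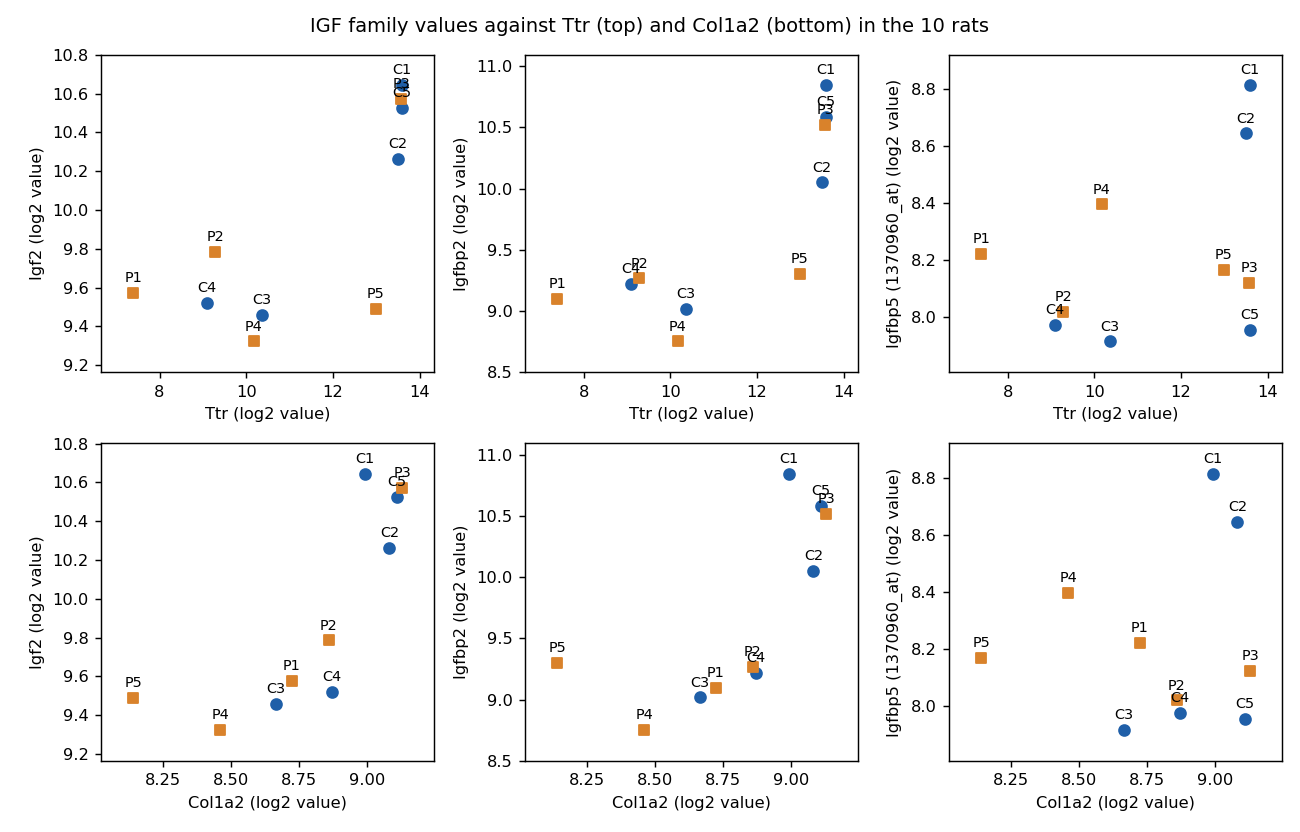
Log2 values of Igf2, Igfbp2 and Igfbp5 (vertical axes) against those of Ttr (top) and Col1a2 (bottom) in the rats of the C-group (blue circles) and the P-group (orange squares). C1, C2, C5 and P3 lie at the top right for Igf2 and Igfbp2. P5 has a high Ttr but a low Col1a2, Igf2 and Igfbp2, and C5 and P3 are not high for Igfbp5.

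Of 22 measured genes of a choroid plexus list, 18 had a variable probe set, and 16 were called higher and none lower in the C-group, against 2.53% of all genes called higher and 20.1% of genes with a variable probe set. The mean of these 18 genes, each centred on its own mean, ran from -0.92 to 1.38 in the C-group and from -1.03 to 0.95 in the P-group. Of 19 measured meningeal genes, 8 were variable, and 7 were called higher and none lower, against the same shares of 2.53% and 20.1%, with centred means from -0.24 to 0.46 and from -0.46 to 0.36. In limma, 0 of the 28 choroid plexus probe sets and 1 of the 26 meningeal ones had an unadjusted p under 0.05, against 2.95% of all. None passed at an adjusted p under 0.05. The C-group minus P-group difference was 1.34 (standard error 1.46) for Ttr and 0.28 (standard error 0.18) for Col1a2 at the probe set with the higher mean. The 4 highest rats of Igf2 were the 4 highest in 20 of 21 variable probe sets of the choroid plexus list and in 9 of 12 of the meningeal list. This held for 219 of all 2904 variable probe sets (7.54%), of which 112 were called higher. P5 was among the 5 highest rats in 20 of the 21 choroid plexus probe sets and among the 3 lowest in 10 of the 12 meningeal ones. In these tissue samples, more cells of a type and more RNA in each such cell cannot be told apart, and an array value has no true zero from which the absence of a marker could be read.

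With Ttr as a covariate in limma, the difference between the groups was 0.12 (standard error 0.25) for Igf2 and 0.24 (standard error 0.33) for Igfbp2. With Col1a2 as a covariate it was -0.043 (standard error 0.25) and 0.10 (standard error 0.42). All 4 values were smaller in size than those without a covariate, and none passed (limma adjusted p = 0.999 with Ttr and 0.9996 with Col1a2). Both markers were themselves higher on average in the C-group and rose with Igf2 and Igfbp2 within the groups, so lower values follow from the fit itself. Ttr entered the fit as a straight line although its rats fell into 5 high and 5 low ones. For Igf1r the values were 0.07 and 0.03 (standard errors 0.10 and 0.10), and for Igfbp5 at the first probe set 0.01 and 0.05 (standard errors 0.21 and 0.24). At the second probe set of Igfbp5 they were 0.02 and 0.08 (standard errors 0.14 and 0.16), and the value with Col1a2 was above the 0.06 without a covariate. What share of a difference came from dissected choroid plexus or meninges was not tested.

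**Figure D4:**
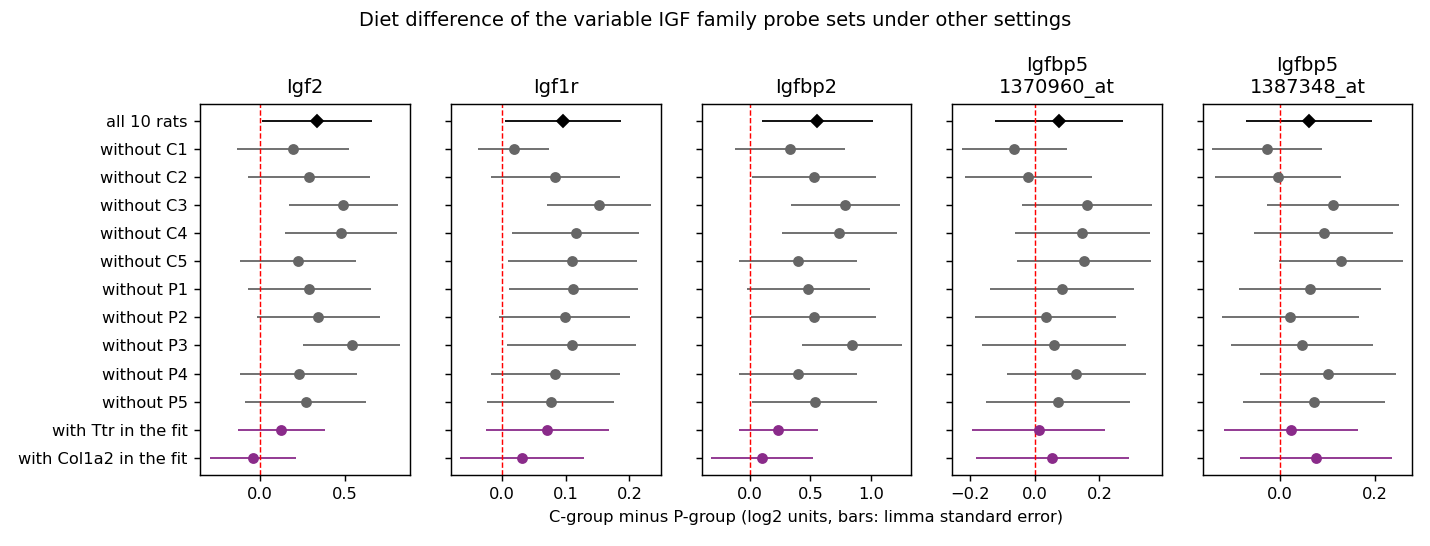
Difference of the C-group minus the P-group (horizontal axis, log2 units) of the 5 variable probe sets of the IGF family with all 10 rats (black diamond), without each rat (gray) and with Ttr or Col1a2 as a covariate (purple), with bars for the limma standard error. The dashed red line marks no difference. The value of Igf2 crosses it with Col1a2 in the fit, those of Igfbp5 cross it without C1 or C2, and the values of Igf1r and Igfbp2 stay above 0. The horizontal axes differ between panels.

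Igf1r and Igfbp5 did not fall into separate clusters of rats, so their relation to Col1a2 was measured over the 10 rats. Igf1r had a Pearson r of 0.54 (permutation p = 0.11) and a Spearman rho of 0.68 (permutation p = 0.0338), with adjusted p = 0.702 and 0.434 over the 2904 variable probe sets. Its r was 0.44 without P5 and P4, the rats farthest from the median of Col1a2, and 0.46 with each group centred on its own mean. For Igfbp5, the first probe set had an r of 0.12 (permutation p = 0.746) and a rho of -0.018 (permutation p = 0.973), and the second an r of 0.0094 (permutation p = 0.98) and a rho of -0.14 (permutation p = 0.709), with adjusted p-values from 0.893 to 0.999. Without P5 and P4 their r was 0.34 and 0.27. None of these 3 relations passed the adjustment.

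The genes outside the family whose values were most like a member's over the 10 rats were named by Pearson's r, as a ranking among variable probe sets and not a test. For Igf2 and Igfbp2, whose rats fell into 2 clusters, the ranking alone is given. Igf2 was most like Sfrp1, a secreted inhibitor of Wnt signaling, then Slc13a4, a sulfate transporter, and Ogn, a small proteoglycan. Igfbp2 was most like Ecrg4, then Fxyd1, a regulator of the sodium pump, and Slc13a4. Slc13a4 was 9.03, 8.68, 8.83 and 8.81 in C1, C2, C5 and P3 and from 7.23 to 7.64 in the other rats, with the same 4 rats high. Ecrg4 is in the choroid plexus list, and Slc13a4 and Ogn are in the meningeal list. Igf1r was most like Nap1l4, a histone chaperone, Ntrk2, the receptor of brain-derived neurotrophic factor, and Cdh13, a cadherin (r = 0.98 each), with C1 highest and C3 lowest in all 3. C1 alone lay above the largest gap of Igf1r (0.26), and r was not computed without C1. Igfbp5 at the first probe set was most like Septin9 (0.98), Tenm4 (0.94) and Cyfip1 (0.94), and at the second most like Septin9 (0.94), the guidance factor gene Slit2 (0.92) and Cpne2 (0.92).

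Of a list of 42 further genes of the pathway, with the insulin receptor, adaptors, the kinases downstream, other binding proteins and their proteases, 36 were measured and 7 had a variable probe set. None was called in either direction, against 2.53% of all genes called higher and 0.626% lower, and 20.1% called higher of genes with a variable probe set. The median difference over their 69 probe sets was 8.7e-06 log2 units, and it was 2.8e-05 over all probe sets. In limma, 4 of the 69 probe sets had an unadjusted p under 0.05, against 2.95% of all probe sets. They belonged to Akt2, a kinase downstream of the receptor, Insr, the insulin receptor, Stc1, a secreted glycoprotein, and Tsc1, a restrainer of mTOR signaling. Each was at a probe set that did not vary and differed by at most 0.00035 log2 units in either direction (adjusted p = 0.927 in limma). Of the 7 variable ones, 5 were higher on average in the C-group and 2 in the P-group. Pik3ca, a catalytic subunit of phosphoinositide 3-kinase, differed by 0.15 (standard error 0.11, FDR 0.0646), Pdpk1, a kinase that activates AKT, by 0.12 (standard error 0.08, FDR 0.11) and Igfbp7, a binding protein of low affinity for the ligands, by 0.09 (standard error 0.07, FDR 0.0778). Gsk3b, a kinase that AKT inhibits, differed by 0.08 (standard error 0.12) and Grb10, an adaptor that restrains the receptors, by 0.02 (standard error 0.09). C1 was the highest rat for these 5. The difference was -0.05 (standard error 0.15) for Igfbpl1, where C5 was highest, and -0.04 (standard error 0.08) for Foxo3, a transcription factor held back by AKT, where C1 was the ninth of 10 rats. Pik3ca, Pdpk1, Grb10 and Foxo3 also had other probe sets, none of which varied.

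Markers of other cell types were measured on the same arrays, and their counts stand against 2.53% of all genes called higher and 0.626% called lower, and 20.1% called higher of genes with a variable probe set. The 9 measured genes of pyramidal and granule neurons had mean values from 7.92 to 12.20, with 1 called higher and 1 lower (7 were variable). Of the astrocyte list, 3 of 8 genes were called higher (4 were variable), with C1 highest in the centred mean of the variable ones at 0.34. Of the interneuron list 1 of 8 was called higher (5 were variable). Of the pineal list 4 of 8 were called lower in the C-group (7 were variable), with P2 at a centred mean of 2.13 and the other rats from -0.30 to -0.17. No gene of the endothelial (1 of 10 variable), mural (1 of 10), microglial (3 of 9) or thalamic (5 of 8) lists was called. With so few variable genes, the absence of calls does not show that these cell types were alike in the groups.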

How the data were processed

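The table holds log2 expression values of 31099 probe sets on 10 Affymetrix Rat Genome 230 2.0 arrays, 1 for each rat. The authors made cRNA from 100 ng of total RNA, normalized and summarized the scanner files with qFARMS in R, and deposited these log2 values. The 57 control probe sets were left out. Gene names came from the platform annotation, and all 9 gene identifiers of the family were found in the RefSeq gene table (GRCr8). Probe sets with several symbols were not used. No genome build is named for the values. The number of arrays limits the precision, and array medians ran from 7.00 to 7.02.

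Rank products was run over all 31042 probe sets with scipy 1.17.1 and numpy 2.4.6 under Python 3.11.15, unpaired, with 100 permutations within arrays and an FDR threshold of 0.05 in each direction, and the FDR was limited to 1. The functions lmFit and eBayes of limma 3.58.1 (R 4.3.3) gave standard errors and p-values with Benjamini-Hochberg adjustment over all probe sets. Both were tested on simulated data with planted changes. There, rank products recovered all of them but also called many probe sets without a planted change, whereas limma recovered fewer and called few others. The planted changes were larger than any difference in the family, and the noise was drawn independently for each probe set. Each probe set kept its real mean and SD, so the mixture of flat and variable probe sets was the same as in the data. The FDRs of rank products given here carry that limit. Real probe sets also share patterns over the rats, which the simulation lacked, so the number of such calls need not be the same. Correlations used 100000 permutations. No pooled correlation was given where the largest gap between sorted values exceeded 1/3 of the range with 3 or more rats on each side, as held for Ttr, Igf2, Igfbp2 and the means of both marker lists. The text names all members, Ttr, Col1a2, the 3 genes most like each variable probe set, and pathway genes by their p-values, to which the 7 variable ones were added after their values were seen. The members, lists and settings were chosen with earlier results of these data known. Alternatives changed the pairing, scaling, filters, random seed, variance model, covariates and rats used.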

Additional observations from a re-analysis of the deposited data

How the results depend on the processing

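Rank products made 2 calls in the family, and made 0 when run on the 2904 variable probe sets alone, where it called 9 probe sets higher in all against 620 (FDR 0.784 for Igf2 and 0.258 for Igfbp2). With 1 rat left out, calls higher ran from 0 to 2 and calls lower from 0 to 1. With the replicate block, 2 were called higher and 1 lower, Igfbp5 at the first probe set (FDR 0.0449), and limma passed 0. The study does not state whether rats with the same number were paired. Deviations from the group means of rats with the same number correlated at 0.28, -0.01, -0.39, 0.48 and 0.45. C1 and C4 were most like the P-group rat of their own number, and C2, C3 and C5 were not. These values cannot settle whether the rats were paired. Median centring of arrays cannot change ranks of differences, and quantile normalization, a second seed and the filter on dim probe sets kept both calls. limma passed 0 of 22 under each of its 16 alternatives. The difference of Igf2 was -0.043 with Col1a2 as a covariate and those of Igfbp5 ran from -0.063 to 0.16 and from -0.026 to 0.13 with 1 rat left out. The correlation of Igfbp5 with Col1a2 was -0.018 and -0.14 by Spearman's rho and -0.072 at the second probe set with groups centred. The marker means fell into clusters, so their correlations were not used. The cause of these changes was not tested.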
